A study of Mus musculus with 7 samples.

Results

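Chemokine (C-C motif) ligand 2, Ccl2, divided the 7 Nkx3.1-/- prostates of this series into 3 with a high and 4 with a low level of its RNA, and this division ran across the drug treatment. The groups were chosen by the measured value itself: an array was placed in the high-Ccl2 group where the deposited log2 value of Ccl2 was above 7.5 (vehicle 2, NAC 2 and NAC 4) and in the low-Ccl2 group where it was below 7.0 (vehicle 1, vehicle 4, NAC 1 and NAC 3). All 7 arrays of the series fell on one side or the other. Because a readout chose the groups, what follows about high and low Ccl2 is a description with no test, and Ccl2 is left out of every count; the only tests are those of N-acetylcysteine (NAC) against vehicle.

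All mice were homozygous null for Nkx3.1, a prostate homeobox gene, and of a recombinant inbred B6/129 strain. They drank plain water (vehicle; replicates 1, 2 and 4) or water with 5 mM NAC, an antioxidant and glutathione precursor (replicates 1 to 4), for 13 weeks from weaning and were 16 weeks old when killed. Each array (Affymetrix Mouse Gene 1.0 ST) holds RNA of 1 mouse, from anterior prostate by the extraction protocol and whole prostate by the tissue label. Littermates were divided between cages of one treatment each, so that cage and NAC cannot be told apart, and no wild-type array was used here. Mice of the study were injected with the label BrdU before they were killed; whether those of the arrays were is not given in the sources used here. Values are log2 expression of a probe set as deposited, and a difference of 1 is 2-fold.

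CCL2 attracts monocytes through its receptor CCR2, and is made by stromal, endothelial, epithelial and myeloid cells when NF-kappaB or cytokine signalling is active. CXCR2 is the receptor through which neutrophils follow CXC chemokines such as CXCL1 and CXCL2. Cytokines of the IL-6 family, among them oncostatin M, bind receptors that share the gp130 subunit (Il6st), activate STAT3 and so induce SOCS3, the feedback inhibitor of that pathway, and acute phase proteins.

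The arrays were alike as a whole: any pair correlated at 0.995 to 0.998 over genes, and array medians lay between 7.16 and 7.20. The prostate identity of the tissue was borne out by probasin (Pbsn, 12.63 to 12.95) and by the luminal keratin Krt18 (12.56 to 12.60) on every array. NAC 3, a low-Ccl2 array, stood apart through RNA of other tissues. The lung surfactant gene Sftpc read 10.51 there and at most 5.26 elsewhere, and lung, fat and skeletal muscle lists were raised there by 1.67, 1.15 and 0.68 over the mean of the 7 arrays. Medians of these 3 lists between high-Ccl2 and low-Ccl2 arrays were -0.31, -0.29 and -0.19 with NAC 3, and 0.02, -0.03 and 0.00 without it. NAC 1, also a low-Ccl2 array, carried the highest values of the macrophage genes Lyz2 (11.02; 9.13 to 10.13 elsewhere) and Adgre1 (7.91; 6.72 to 6.95 elsewhere). Since whole tissue was measured, a change in the number of cells of a type cannot be told apart from a change in RNA per cell.

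The levels of Ccl2 itself were 6.48, 6.47, 6.33 and 6.68 on the low-Ccl2 arrays, given here and below in the order vehicle 1, vehicle 4, NAC 1 and NAC 3, and 7.88, 8.33 and 7.90 on the high-Ccl2 arrays, in the order vehicle 2, NAC 2 and NAC 4. The means, 8.03 ± 0.26 (SD, n = 3) and 6.49 ± 0.14 (SD, n = 4), were 1.54 apart, which is 2.91-fold, and no array lay between 6.68 and 7.88. The 2 NAC arrays with high Ccl2 and the single vehicle array with high Ccl2 were separated from the low arrays of their own treatment by 1.60 and 1.40.

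Of 18937 other genes, 80 were higher on every high-Ccl2 array than on any low-Ccl2 array with a difference of the means of at least 0.5, which is 0.422% of genes, and 16 were lower by the same measure, 0.0845%. The 17 genes with a difference of at least 1 were all higher ones. Counting a difference of any size, with or without overlap, 9100 of the 18937 genes were higher and 9780 lower. Without the size limit the groups failed to overlap in 1335 genes (7.05%), 597 higher and 738 lower, and 40 of the 136 genes with a difference of at least 0.5 in size did overlap. At the limit, Cxadr (0.51) lay just inside and Sh3pxd2b (0.499) just outside among higher genes, and Acrbp (-0.50) and Kctd21 (-0.49) among lower ones. Leaving out NAC 3 gave 89 higher and 19 lower genes, and the lower ones numbered 25 without vehicle 1, 27 without vehicle 2 and 25 without NAC 2.

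**Figure D1:**
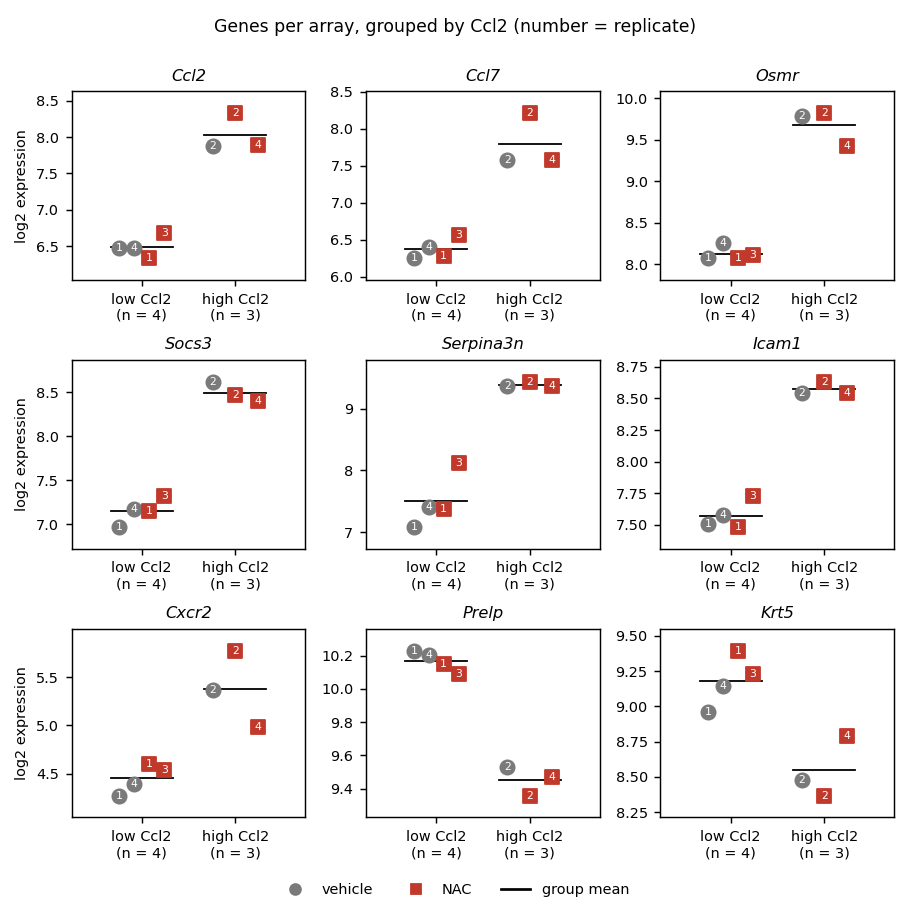
Log2 expression of 9 genes on each of the 7 arrays, low-Ccl2 arrays on the left and high-Ccl2 arrays on the right of each panel; grey circles are vehicle, red squares NAC, the number is the replicate and the line the group mean. In every panel the 3 high-Ccl2 arrays lie apart from the 4 low-Ccl2 arrays, above them in 7 panels and below them for Prelp and Krt5, and vehicle and NAC symbols stand on both sides.

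The chemokine whose values followed Ccl2 most closely was its genomic neighbour. In the mouse genome (RefSeq, GRCm38.p6) Ccl2, Ccl7, Ccl11, Ccl12, Ccl8 and Ccl1 lie next to each other in this order. Ccl7, which encodes MCP-3, another monocyte attractant, read 6.25, 6.40, 6.28 and 6.57 on the low arrays and 7.57, 8.21 and 7.58 on the high ones, a difference of 1.41 (SD 0.14 and 0.37). NAC 2 was highest for both genes. The other members of this row did not share the pattern: Ccl11 (-0.14), Ccl12 (0.08), Ccl8 (-0.10) and Ccl1 (0.07) overlapped between the groups. Over the 7 arrays, the genes with the highest Pearson correlation with Ccl2 were Ccl7 (0.993), the haem oxygenase Hmox1 (0.992), the leukocyte adhesion molecule Icam1 (0.991), the plasminogen activator Plat (0.991) and the ubiquitin ligase gene Rnf144b (0.988), whose difference was 0.16. With arrays in 2 separate groups, these correlations mainly repeat the distance between the groups, and they were not tested.

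Of 17 CC chemokine ligands measured besides Ccl2, 12 were higher and 5 lower. Among the 80 genes (0.422% of all genes) were 3 of them, Ccl7, Ccl17 and Ccl9. The median difference was 0.08, against 0.00 over all genes. It was 0.04 without NAC 4 and 0.18 without dim genes (mean expression in the lowest 40%). Ccl17, a ligand of CCR4 on T cells, read 6.66, 6.82, 6.58 and 6.65 on low arrays and 7.37, 7.56 and 7.43 on high arrays, a difference of 0.78 (SD 0.10 in both groups). Ccl9 followed with 0.57 and Ccl3, which only touched the low arrays, with 0.38. The 17 CXC and other ligands were split into 9 higher and 8 lower, with none among the 80. The CXCR2 ligands Cxcl1 (0.13), Cxcl2 (0.43) and Cxcl5 (0.09) overlapped between the groups, and Cxcl2 was above the low arrays on vehicle 2 (5.88) and NAC 2 (5.53), while NAC 4 (5.15) equalled the highest of them.

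Among 21 chemokine receptors 8 were higher and 13 lower, and 2 were among the 80 (0.422% of all genes). Cxcr2 read 4.28, 4.40, 4.60 and 4.54 on low arrays and 5.37, 5.77 and 4.98 on high arrays, a difference of 0.92 (SD 0.14 and 0.40). The gap was widest on NAC 2 and narrowest on NAC 4. All Cxcr2 readings lay well below the array medians (7.16 to 7.20). Ackr1, the decoy receptor for chemokines on venular endothelium, read 5.87, 5.88, 5.94 and 6.15 against 6.86, 6.82 and 6.45, a difference of 0.75 (SD 0.13 and 0.22). The CCL2 receptor gene Ccr2 lay on the other side: its values, 5.86, 6.21, 6.00 and 5.81 on low arrays and 5.69, 5.76 and 5.70 on high arrays, differed by -0.25 (SD 0.18 and 0.04) with no overlap.

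The gene furthest apart belonged to the IL-6, STAT3 and acute phase response. Of the 23 genes of this list measured, 20 were higher and 3 lower, 9 were among the 80 (0.422% of all genes), and the median difference was 0.20, which was 0.33 within vehicle and 0.25 within NAC. The median was 0.31 without NAC 3 and 0.61 without dim genes. Serpina3n, an acute phase inhibitor of serine proteases, read 7.08, 7.40, 7.38 and 8.12 on low arrays and 9.37, 9.43 and 9.37 on high arrays, the largest difference of any gene that did not overlap (1.89, 3.72-fold; SD 0.44 and 0.04). The 3 high arrays were nearly equal, and NAC 3 was the highest of the low ones.

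The ligands and receptors of this axis named here differed in how far the groups stood apart. RNA of the ligands overlapped. Il6 lay between 2.69 and 3.14 on low and between 3.11 and 3.41 on high arrays. Osm (oncostatin M) lay between 4.67 and 5.18 and between 5.03 and 5.32, and Lif between 5.13 and 5.85 and between 5.68 and 5.79. All of these readings were well below the array medians (7.16 to 7.20), so their overlap does not show that ligand RNA was alike. Osmr, the oncostatin M receptor subunit, read 8.08, 8.25, 8.07 and 8.11 on low arrays and 9.79, 9.82 and 9.42 on high arrays. That is a difference of 1.55 (SD 0.08 and 0.22), and the low arrays hardly varied. Its partner Il6st was higher by only 0.16, from 10.10 to 10.17 against 10.18 to 10.38, and Il6ra (0.09) overlapped.

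Several genes listed with this pathway were higher as well. Signalling was not measured, and its part in these differences was not tested. Stat3, which is itself a STAT3 target, read 10.30, 10.20, 10.32 and 10.24 on low arrays and 10.64, 10.75 and 10.61 on high arrays, a difference of 0.40 (SD 0.06 and 0.07). Socs3, the feedback inhibitor, read 6.97, 7.17, 7.15 and 7.33 against 8.62, 8.47 and 8.41, a difference of 1.34 (SD 0.15 and 0.11). Cebpd, a transcription factor of the acute phase, differed by 0.89, Lcn2, which encodes the siderophore-binding protein lipocalin 2, by 0.89, and Lrg1, a leucine-rich acute phase glycoprotein, by 0.61. Steap4 (0.65), Il4ra (0.75) and Thbs1, described with the matrix genes, completed the 9. Not every acute phase gene did so. Saa3 was 7.13 on NAC 1 and between 5.23 and 5.47 elsewhere, Hp was highest on NAC 3 (7.20), and Timp1 differed by 0.04.

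Genes of cytokines and of NF-kappaB feedback showed smaller differences. Of 29 measured, 26 were higher, 5 were among the 80 (0.422% of all genes) and the median was 0.12. Icam1, which holds leukocytes at the vessel wall, read 7.504, 7.58, 7.48 and 7.73 on low arrays and 8.54, 8.63 and 8.54 on high arrays, a difference of 1.00 (SD 0.11 and 0.05). Csf1, the growth factor of macrophages, read 7.09, 6.99, 7.17 and 7.29 against 7.84, 8.27 and 8.07, a difference of 0.93 (SD 0.13 and 0.22). Il1b (0.85), the NF-kappaB cofactor Bcl3 (0.84) and the prostaglandin synthase Ptgs2 (0.71) also failed to overlap. Tnf (-0.08) and the endothelial selectin Sele (0.04) overlapped, while Vcam1 (0.13) and the NF-kappaB inhibitors Nfkbia (0.20) and Tnfaip3 (0.13) lay above the low arrays by little.

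Sequence before the start of transcription is shown for 4 of the 80 higher genes, Socs3, Icam1, Csf1 and Fgl2 (a prothrombinase gene), 3 with a STAT match and 1 with an NF-kappaB match, since these pathways induce several of the genes described. Matches before the start also lay in Lilr4b (STAT), Medag and Casp4 (NF-kappaB) and Gfpt2 (AP-1 and NF-kappaB), which are not shown. Promoters come from RefSeq (GRCm38.p6) and cover 250 bases before and 50 after the start. Such a window was available for 63 of the 80 higher genes. Each line gives the 250 bases before the start, 5′ to 3′ on the strand of the gene, with capitals marking matches to STAT (TTCNNNGAA), AP-1 (TGANTCA) or the NF-kappaB consensus (GGGRNNYYCC, R for A or G, Y for C or T), searched on both strands.
Socs3, chr11:117969367-117969616, minus strand: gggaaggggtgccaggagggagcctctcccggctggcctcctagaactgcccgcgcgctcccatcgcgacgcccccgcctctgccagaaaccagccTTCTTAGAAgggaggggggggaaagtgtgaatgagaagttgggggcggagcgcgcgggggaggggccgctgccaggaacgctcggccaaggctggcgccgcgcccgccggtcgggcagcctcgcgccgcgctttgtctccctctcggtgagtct
Fgl2, chr5:21372423-21372672, plus strand: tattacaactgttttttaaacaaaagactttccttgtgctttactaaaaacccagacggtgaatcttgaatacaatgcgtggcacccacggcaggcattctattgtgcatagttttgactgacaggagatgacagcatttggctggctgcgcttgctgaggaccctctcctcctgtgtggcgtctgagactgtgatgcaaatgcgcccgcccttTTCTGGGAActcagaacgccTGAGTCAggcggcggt
Icam1, chr9:21015690-21015939, plus strand: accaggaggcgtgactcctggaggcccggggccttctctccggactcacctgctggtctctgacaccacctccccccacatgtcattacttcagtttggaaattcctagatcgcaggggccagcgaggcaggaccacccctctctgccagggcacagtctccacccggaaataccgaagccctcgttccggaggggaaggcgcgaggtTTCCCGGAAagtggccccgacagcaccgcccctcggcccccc
Csf1, chr3:107760470-107760719, minus strand: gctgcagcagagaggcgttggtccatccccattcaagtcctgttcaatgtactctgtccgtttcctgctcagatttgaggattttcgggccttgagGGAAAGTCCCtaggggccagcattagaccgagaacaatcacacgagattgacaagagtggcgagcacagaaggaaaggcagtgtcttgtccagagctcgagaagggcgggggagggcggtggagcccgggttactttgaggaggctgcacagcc

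The STAT match began 154 bases before the start in Socs3, 36 in Fgl2 and 42 in Icam1, the AP-1 match of Fgl2 16 bases before it, and the NF-kappaB match of Csf1 154. In the 83 windows of the 63 higher genes, the STAT letters were found in 19.3%, against 8.30% of all 32851 windows of the same length, the NF-kappaB consensus in 26.5% against 8.46%, and the AP-1 letters in 9.64% against 7.81%. Counted by gene, 13 of 63 (20.6%) held a STAT match, 20 (31.7%) an NF-kappaB match and 7 (11.1%) an AP-1 match. Among all 27025 genes with a window these shares were 9.55%, 9.55% and 8.97%. These letters were matched, not binding, and the shares were not tested.

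Neutrophil genes other than Cxcr2 were present at small differences. Among 17 neutrophil markers, 14 were higher, 3 were lower and 1, Cxcr2, was among the 80 (0.422% of all genes). Their median difference was 0.27, and 0.16 without NAC 2. The granulocyte receptor gene Csf3r read 5.73, 5.53, 5.98 and 5.94 on low arrays and 6.19, 6.52 and 6.15 on high arrays, a difference of 0.49 (SD 0.21 and 0.20). S100a8, a calprotectin subunit abundant in neutrophils, read 4.70, 4.92, 4.78 and 4.94 against 5.36, 5.45 and 4.94, so that vehicle 2 and NAC 2 stood above the low arrays and NAC 4 did not. The same held for S100a9 (0.42). The S100a8 readings, like those of Cxcr2, were well below the array medians (7.16 to 7.20). Averaged over the list, the deviation from the mean of the 7 arrays was 0.08, 0.29 and 0.07 on vehicle 2, NAC 2 and NAC 4, and -0.19, -0.19, -0.03 and -0.03 on the low arrays.

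Markers of monocytes and macrophages, the cells that CCL2 attracts, were not higher as a list: 10 of 23 were higher and 13 lower, none was among the 80 or the 16, and the median was -0.03. Adgre1 (F4/80) read 6.95, 6.95, 7.91 and 6.95 on low arrays and 6.77, 6.90 and 6.72 on high arrays. Cd68 lay between 7.55 and 7.73 on low and between 7.45 and 7.51 on high arrays. Csf1r overlapped (-0.13), as did the leukocyte gene Ptprc (-0.06). Without the size limit, 2 genes of the list were higher without overlap, Cd14 (0.34) and Cd300lf (0.11). The 3 lower without overlap were Adgre1, Cd68 and Ccr2, and the difference of Adgre1 came mostly from NAC 1. Lilr4b, a receptor of myeloid cells, nevertheless read 5.83, 5.64, 6.32 and 5.81 on low and 7.45, 7.51 and 7.12 on high arrays, a difference of 1.46 (SD 0.29 and 0.21), and its near-identical neighbour Lilrb4a differed by 0.63. Ms4a6d, expressed in macrophages, differed by 0.82. Whether probes of such near copies share signal was not tested.

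**Figure D2:**
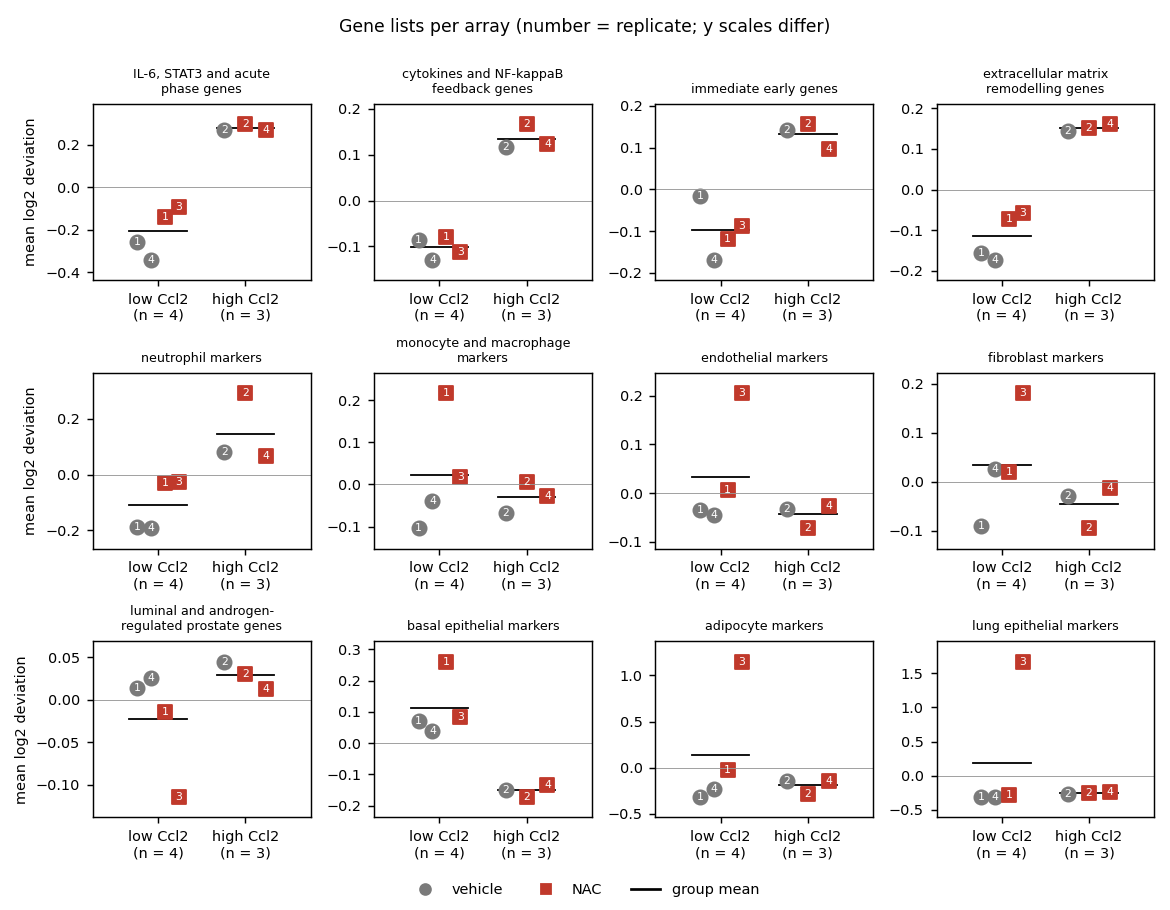
Mean log2 deviation of 12 gene lists from the mean of the 7 arrays, per array, with low-Ccl2 arrays on the left and high-Ccl2 arrays on the right; symbols as above and scales differ between panels. The IL-6, cytokine, immediate early, matrix remodelling and neutrophil lists are higher and the basal list lower on all 3 high-Ccl2 arrays, while fat and lung lists are set by NAC 3 alone (1.15 and 1.67).

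The remaining leading genes included several of adhesion, clotting and matrix. Of 29 genes of extracellular matrix remodelling, 25 were higher, 5 were among the 80 (0.422% of all genes) and the median was 0.13. Thbs1, which encodes the matricellular protein thrombospondin 1, read 9.07, 8.77, 9.53 and 8.89 on low arrays and 10.73, 10.49 and 10.60 on high arrays, a difference of 1.55 (SD 0.34 and 0.12). The proteases Adamts4 (1.02), Adamts1 (0.61) and Adamts9 (0.57), which cleave proteoglycans, and Plat (0.80) were the others. Outside this list, Itga5, the alpha chain of the fibronectin receptor, read 7.64, 7.80, 7.89 and 8.39 against 9.20, 9.20 and 9.16, a difference of 1.26 (SD 0.32 and 0.03). Its 3 high arrays were nearly equal. The proteoglycan Vcan differed by 0.58. Fgl2, a prothrombinase whose promoter is shown above, differed by 1.22 and Thbd, the endothelial thrombin receptor, by 0.63.

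Ptx3, a soluble pattern-recognition pentraxin, was flat on the low arrays (5.70, 5.72, 5.76 and 5.66) and read 7.02, 7.07 and 6.72 on the high ones, a difference of 1.23 (SD 0.04 and 0.19). Ifi205, an interferon-inducible gene of the HIN-200 family, read 7.52, 7.92, 7.84 and 8.46 on low arrays and 9.80, 9.92 and 9.71 on high arrays, a difference of 1.87 (SD 0.39 and 0.10), and its relative Ifi207 differed by 0.93. The interferon-induced list as a whole did not share this: 11 of 33 were higher and 22 lower, none was among the 80, and the median was -0.03. Casp4, an inflammatory caspase, differed by 1.16. Medag, named for a role in fat cell formation, differed by 1.20, whereas 12 of 13 fat cell markers were lower, with the dependence on NAC 3 given above.

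Genes of growth factor signalling and of sugar metabolism were also present. Hgf, the stromal ligand of the receptor MET, read 6.67, 7.08, 7.03 and 6.86 on low and 7.93, 8.25 and 7.67 on high arrays, a difference of 1.04 (SD 0.18 and 0.29). Errfi1, a feedback inhibitor of the EGF receptor, read 9.94, 10.03, 9.71 and 10.16 against 11.15, 11.18 and 10.91, a difference of 1.12 (SD 0.19 and 0.15). Ugdh (1.05) and Gfpt2 (0.98) supply the sugar nucleotides of glycosaminoglycans, and Pfkfb3 (0.97) regulates glycolysis. Cmbl, a hydrolase, was the most uneven of the leading genes: it read 6.64, 8.55, 8.45 and 6.77 on low arrays and 9.36, 8.73 and 9.07 on high arrays, so that its difference of 1.45 (SD 1.04 and 0.32) came mostly from vehicle 1 and NAC 3.

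Immediate early genes, transcribed within minutes of a stimulus or of tissue handling, moved the same way. Of 36 measured, 33 were higher and 6 were among the 80 (0.422% of all genes). The median was 0.17, 0.19 within vehicle and 0.18 within NAC. Arc read 7.30, 7.17, 6.93 and 7.04 on low arrays and 7.91, 7.76 and 7.69 on high arrays, a difference of 0.68 (SD 0.16 and 0.11), followed by Nr4a3 (0.63), Fosl1 (0.60), Maff (0.54), Fosl2 (0.53) and Ier3 (0.51). The classical members were less distinct: Fos (0.40) and Egr1 (0.31) overlapped or touched, and Jun (0.06) and Atf3 (0.04) overlapped. The part of this list in the other differences was not tested.

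**Figure D3:**
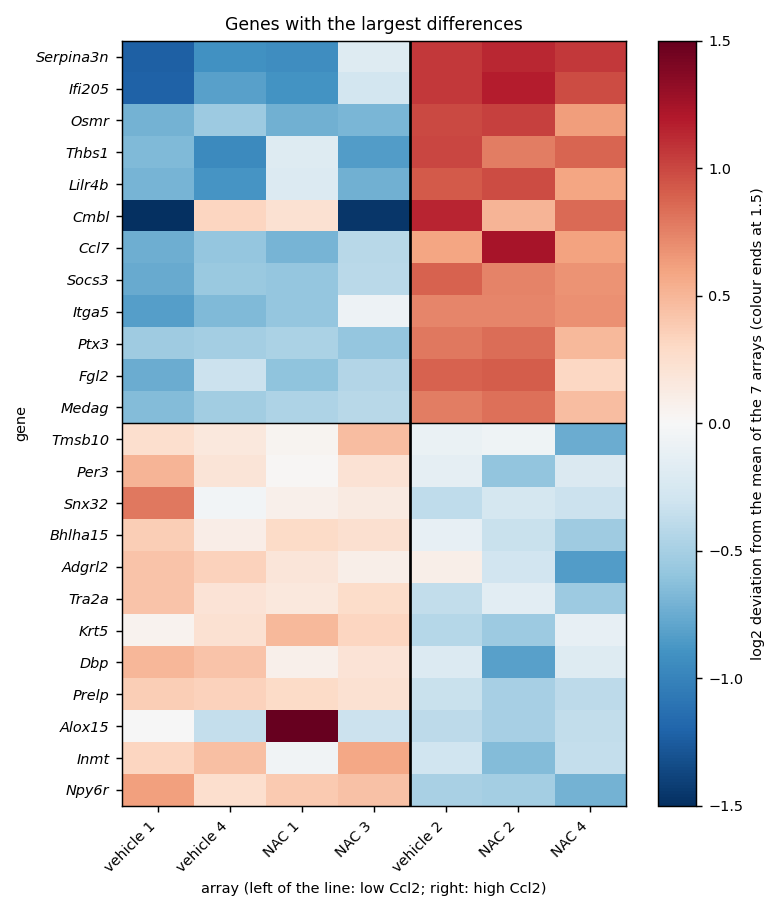
Deviation from the mean of the 7 arrays (log2, colour) of the 12 genes per direction with the largest differences, one row per gene and one column per array, with the low-Ccl2 arrays left of the vertical line. Higher genes (above the horizontal line) are red on all 3 high-Ccl2 arrays; Cmbl on vehicle 1 and NAC 3 and Alox15 on NAC 1 stand out within the low-Ccl2 group.

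The lower genes were fewer and closer. Npy6r, a neuropeptide Y receptor gene, read 7.35, 6.98, 7.13 and 7.18 on low arrays and 6.25, 6.22 and 6.03 on high arrays, a difference of -0.99 (SD 0.15 and 0.12). Prelp, a small leucine-rich proteoglycan of connective tissue, read 10.23, 10.20, 10.15 and 10.09 against 9.53, 9.36 and 9.47, a difference of -0.72 (SD 0.06 and 0.09), and was nearly constant within each group. The methyltransferase gene Inmt (-0.76), the splicing factor gene Tra2a (-0.63), the adhesion receptor gene Adgrl2 (-0.61) and Bhlha15, a transcription factor of secretory cells (-0.58), followed. Adgrl2 only just failed to overlap, with vehicle 2 at 7.170 and NAC 3 at 7.171, and was lowest on NAC 4 (6.25). The lipoxygenase gene Alox15 (-0.74) owed its place to NAC 1, at 8.82, since the other 6 arrays lay between 6.37 and 6.86.

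Basal epithelial markers were lower throughout: all 8 measured were lower, Krt5 and Krt15 were among the 16 (0.0845% of all genes), and the median was -0.18, -0.12 within vehicle and -0.24 within NAC. Krt5, the keratin of basal cells, read 8.96, 9.14, 9.40 and 9.23 on low arrays and 8.48, 8.37 and 8.79 on high arrays, a difference of -0.64 (SD 0.18 and 0.22). Krt15 differed by -0.53 and Trp63, the basal transcription factor p63, by -0.33, from 8.70 to 9.04 on low and from 8.50 to 8.59 on high arrays. Krt14 (-0.07) overlapped. Luminal and androgen-regulated genes did not move against them, of which 9 of 16 were higher (median 0.01).

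The circadian genes Dbp and Per3 were among the 16 lower genes (0.0845% of all genes). Dbp read 9.53, 9.46, 9.12 and 9.24 on low arrays and 8.84, 8.23 and 8.85 on high arrays, a difference of -0.70 (SD 0.19 and 0.35), and Per3 differed by -0.55. Tef (-0.28), Per2 (-0.28), Hlf (-0.32), Ciart (0.29) and Arntl (0.42) overlapped. Over the 20 glucocorticoid and circadian genes 13 were higher, 7 were lower and the median difference was 0.10. The time of day at which each mouse was killed is not given in the sources used here, and its part was not tested.

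The treatment was set against this division in 2 ways. First, all 96 genes kept their sign within vehicle and within NAC: the median difference of the 80 higher genes was 0.80 within vehicle (1 array against 2) and 0.65 within NAC (2 against 2), and that of the 16 lower genes -0.50 and -0.68. The shared sign follows wholly from the choice of genes whose groups do not overlap, since each treatment holds arrays of both groups. It is therefore no check on treatment and no sign of stability. Among the 80, NAC 2 was the highest array for 53 genes, vehicle 2 for 22 and NAC 4 for 5, so the vehicle array was not the weakest of the 3. Among the low arrays NAC 3 was highest for 40 of the 80.

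**Figure D4:**
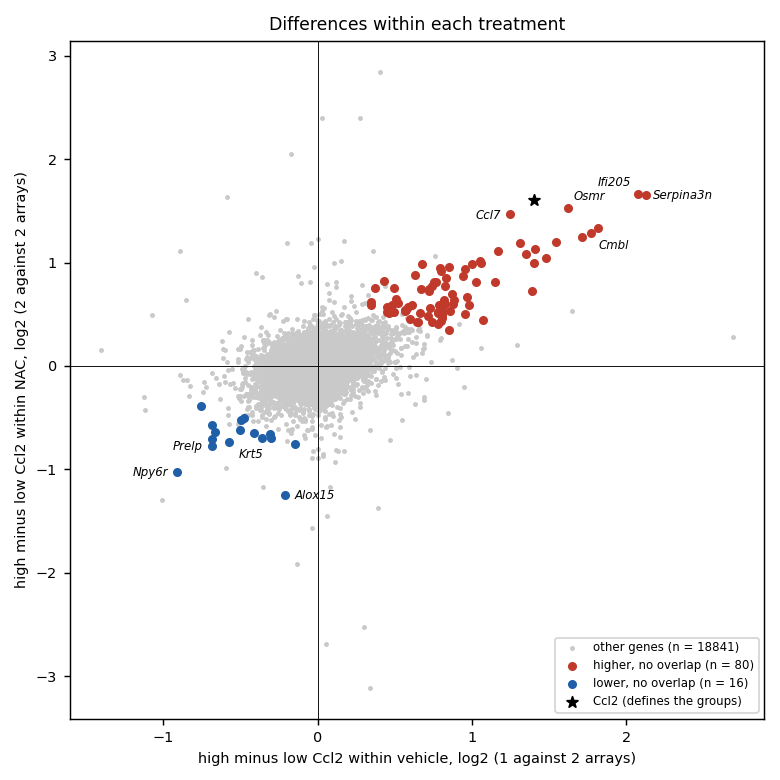
Each point is a gene, placed by its difference between high-Ccl2 and low-Ccl2 arrays within vehicle (x, log2) and within NAC (y, log2); red and blue are the 80 higher and 16 lower genes, grey all others and the star Ccl2. By the choice of genes without overlap, all red points lie in the upper right and all blue points in the lower left of the plot.

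Second, NAC was compared with vehicle in all 7 arrays with limma. At an adjusted p under 0.05, 0 of 18937 genes passed (0%), the smallest adjusted p being 0.827, and 836 (4.41%) had an unadjusted p under 0.05. None of the 96 genes was among those 836; each treatment holds arrays of both groups, so genes chosen for that division vary within a treatment. In the 80 higher genes the difference of NAC minus vehicle had a median of 0.18 and a range of -0.21 to 0.67, and 74 were above 0, where 2 of 4 NAC arrays and 1 of 3 vehicle arrays are of the high-Ccl2 group. Ccl2 differed by 0.37 ± 0.59 (SE; limma adjusted p = 0.896), Osmr by 0.15 ± 0.60 (adjusted p = 0.968) and Serpina3n by 0.62 ± 0.72 (adjusted p = 0.862). These standard errors are wide enough to hide changes of the size seen between the groups, so the test does not show that NAC left these genes alone. With the Ccl2 group as a covariate, again 0 genes passed, and 1000 had an unadjusted p under 0.05. Without NAC 4, 1 gene passed as lower under NAC in limma, Crip1 (adjusted p = 0.0325), which is not among the 96.

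**Figure D5:**
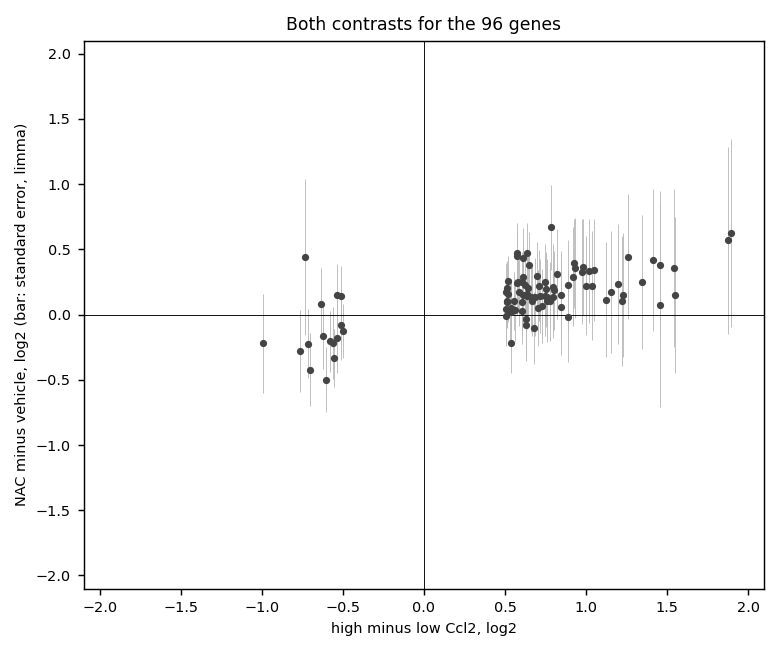
The 96 genes by their difference between high-Ccl2 and low-Ccl2 arrays (x, log2) and by NAC minus vehicle (y, log2; bars are limma standard errors). The x values reach from -0.99 to 1.89 with none near 0 by choice, while the y values lie between -0.50 and 0.67.

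The replicate numbers run partly along the division: both arrays numbered 2 were high and both numbered 1 low in Ccl2, while vehicle 4 was low and NAC 4 high. What a number stands for is not given in the sources used here, and its part in these differences was not tested.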

How the data were processed

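The authors quantile-normalized the 7 arrays, corrected the background with RMA and summarized perfect-match probes by median polish; the deposited values are log2 expression. 1 further vehicle array failed the authors' quality control. Tools listed in the submitters' processing notes are affy, limma and RMA, with no version. The number of arrays, not a read depth, limits the precision. Of 20696 probe sets, 18950 named 1 gene, 678 several and 1068 none here, the latter 2 kinds being left out; the probe set with the highest mean stood for a gene (18938 genes). In 7568 genes 3 or more arrays share 1 value. Columns of values without a sample numbered 0.

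High-Ccl2 and low-Ccl2 arrays were compared by differences of mean log2 values without a test. NAC was tested against vehicle by limma 3.58.1 under R 4.3.3 (two-sided, Benjamini-Hochberg over all genes, no covariates). P-values assume 1 mouse per array. On simulated data of this comparison (18938 genes, 200 changed, 10 runs) limma called 74.8%, 94.6% and 99.6% of genes changed by a log2 of 0.5, 1 and 2, with 9.7 false calls per run. The changed genes were drawn at random, with errors independent between genes. These shares therefore do not apply to genes of wide spread, such as Ccl2 (standard error 0.59).

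The groups, genes and lists were chosen with earlier results of these data known. Named by rule were Ccl2, Cxcr2, 12 genes per direction with the largest non-overlapping difference of one sign in both treatments, the 5 most correlated with Ccl2, up to 4 per list and defining cell type markers, passing over predicted genes, Riken clones, chemosensory receptors and receptor segments. Other genes named, such as Il6, Osm and Stat3, were chosen after their values were seen. Lists were written from textbook knowledge. Alternatives were array medians subtracted, quantile normalization again, dim genes left out (mean expression in the lowest 40%), probe sets of a gene combined by their median, each array left out, within-treatment means, minimum differences of 0.3 and 1, a variance trend with robust fit, array weights, the replicate number as a block and the Ccl2 group as a covariate. Gene names were updated with the RefSeq table of GRCm38.p6, in which 18910 genes were found.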

Additional observations from a re-analysis of the deposited data

Results flagged for a closer look

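Alox15 on NAC 1, at 8.82, lay far from the other arrays of its treatment and from the other arrays of the low-Ccl2 group, which read 6.52 to 6.86. It was 1 gene on 1 array among 60 groups of values examined, of which 2 were set apart by a gap that chance gives in about 1 in 20.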

How the results depend on the processing

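The number of arrays limits every value. The 80 higher and 16 lower genes became 184 and 120 with a minimum difference of 0.3, and 17 and 0 with 1. Leaving out 1 array each gave 76 to 115 higher and 19 to 27 lower genes (25 without vehicle 1, 27 without vehicle 2, 25 without NAC 2), with 77 to 91 of the 96 shared. Subtracted array medians and repeated quantile normalization each shared 93 of 96. Leaving out dim genes left 70 higher and 15 lower genes, all among the 96. All 1615 values of named genes under alternatives lay within 1 SD of the main value. Changes of sign were counted only for named genes among the 96, where there were 0. Named genes with small differences, such as Cpa3 (0.24), could change sign unseen by this count. Without dim genes, medians were 0.61 for the IL-6 list (0.20 with them), 0.18 for CC ligands and -0.15 for chemokine receptors. With 1 array left out, medians ranged from 0.17 to 0.31 (IL-6; highest without NAC 3), 0.0888 to 0.13 (cytokines; lowest without NAC 1), 0.15 to 0.24 (immediate early; highest without NAC 4), 0.11 to 0.16 (matrix), 0.16 to 0.31 (neutrophil; lowest without NAC 2), 0.04 to 0.10 (CC ligands), -0.0574 to 0.0031 (receptors; highest without vehicle 2) and -0.22 to -0.13 (basal). NAC against vehicle gave 0 higher genes throughout and 0 to 1 lower ones, the 1 (Crip1, adjusted p 0.0325 by limma) without NAC 4. Arrays of 1 replicate number deviated together in 2 of 3 pairs only (correlations of 0.21, 0.29 and -0.07), so the numbers were not taken as pairs; with the replicate number as a block 0 genes passed and 956 had an unadjusted p under 0.05. The cause of these changes was not tested.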

Other observations

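Further lists, given as values, held no gene that was both without overlap and at least 0.5 apart, except for Hmox1 in the list of NRF2 targets and glutathione enzymes. Heat shock genes were lower in 10 of 12 (median -0.09), with Hspa8 between 11.94 and 12.22 on low and between 11.70 and 12.10 on the high-Ccl2 arrays. Cell cycle genes were lower in 24 of 35 (median -0.04), genes of the unfolded protein and amino acid responses in 8 of 17 (0.01), endothelial markers in 13 of 17 (-0.07), fibroblast markers in 12 of 15 (-0.09), smooth muscle markers in 9 of 13 (-0.06), nerve markers in 6 of 8 (-0.05), B and plasma cell markers in 9 of 12 (-0.10), T and NK cell markers in 8 of 17 (0.00) and dendritic cell markers in 6 of 15 (0.03). Some of these medians depended on NAC 3. Without it they were 0.02 for cell cycle genes and -0.01, -0.05, -0.04 and -0.005 for endothelial, fibroblast, smooth muscle and nerve markers. Mast cell and eosinophil markers were higher in 11 of 13 (0.08), NRF2 targets and glutathione enzymes in 16 of 22 (0.05), urothelial markers in 4 of 6 (0.08) and erythrocyte and platelet markers in 4 of 6 (0.04). Seminal vesicle secretory genes were higher in all 8, with medians of 0.09 within vehicle and 0.99 within NAC; Svs2 overlapped between the groups and was highest on NAC 4 (13.53) and lowest on NAC 1 (9.40).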
